A study of Mus musculus with 24 samples.

Results

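Sik1, Crem, Creb1, Crtc1 and Crebbp, 5 genes that act on or through the transcription factor CREB, were taken by symbol from a table of 19661 mouse genes, and each symbol matched 1 entry. RNA of both dorsal hippocampi had been sequenced in 24 libraries, 6 to a group, each with its own replicate number in the labels and taken here as 1 mouse. Wild-type mice (C57BL/6J) and Baf53b+/- mice on the background that the labels write as B6J.129S6-Actl6b<tm1Grc>, either came straight from the home cage or had been trained for object location memory and killed 30 minutes later. In this training a mouse explores objects at fixed places in an arena. Baf53b+/- mice carry 1 targeted allele of Actl6b, which encodes BAF53b, a subunit of the chromatin-remodelling BAF complex of neurons, and no other allele or agent is named for any group. The 129S6 strain is named for the heterozygotes alone, so strain background and genotype cannot be told apart. The home cage is the only control for training, so learning cannot be told apart from handling and exploration. The labels used here give no ages.

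CREB binds short DNA elements called cAMP response elements (CREs). When synaptic activity raises calcium and cAMP, kinases phosphorylate CREB, which then recruits the acetyltransferase CBP. In parallel, the phosphatase calcineurin releases CRTC coactivators from the cytoplasm, and they move to the nucleus and bind CREB. Some targets feed back on the pathway: Sik1 encodes a salt-inducible kinase that phosphorylates CRTCs and returns them to the cytoplasm, and an internal promoter of Crem gives the repressor ICER. In the hippocampus CREB-dependent transcription is known for its part in lasting memory. CREB, CRTC1 and CBP are themselves controlled largely by phosphorylation, location and binding, none of which RNA levels record.

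Levels are in RPKM, read counts divided by gene length and by library depth. Comparisons between genes rest on the gene lengths used, whose annotation is not stated. Depth recovered from steps in the low values was about 28.4 to 46.9 M reads per library, which is also the number of reads per kilobase behind 1 RPKM. Neuronal markers such as Camk2a were high in every library, with the 5 markers summing to 2795 to 3291 RPKM, and all 10 pyramidal and all 10 dentate granule cell markers had a mean of at least 1 RPKM. In 6 libraries, 1 in each wild-type group and 2 in each heterozygous group, markers of choroid plexus, the epithelium that makes cerebrospinal fluid, stood apart. The summed level of the 14 choroid plexus markers ran from 16.1 to 4782 RPKM over the 24 libraries, and none of them was at 0 throughout. By the Y-linked gene Ddx3y, 5 of the 6 libraries of heterozygous home cage animals came from males, against 3 of 6 in each other group. Actl6b, which checks the labels, was at 46.4 to 54.4 RPKM in wild-type animals and 27.3 to 32.4 in heterozygotes.

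Over the 24 libraries Crtc1 was the highest of the 5 genes, at 58.3 ± 4.78 RPKM (SD, n = 24). Crebbp followed at 11.4 ± 0.766 and Creb1 at 8.003 ± 0.481 RPKM. The ranges of these 3 genes did not overlap: the lowest Crtc1 value was 47.7 RPKM, Crebbp ran from 9.62 to 12.9 and Creb1 from 6.88 to 8.80. Sik1 and Crem were the 2 lowest, with Crem at 1.97 ± 0.173 RPKM and Sik1 between 1.59 and 4.99. In the home cage Sik1 and Crem could not be ordered, since their ranges overlapped in both genotypes, with a mean Sik1 to Crem ratio of 0.985 ± 0.176 (SD, n = 6) in wild type and 1.095 ± 0.184 in heterozygotes. After training Sik1 stood above Crem in all 12 libraries, at a mean ratio of 2.01 ± 0.267 in wild type and 1.98 ± 0.351 in heterozygotes. Coverage was thinnest for these 2 genes, at 56.3 to 86.1 reads per kilobase for Crem and 54.8 to 162 for Sik1.

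**Figure D1:**
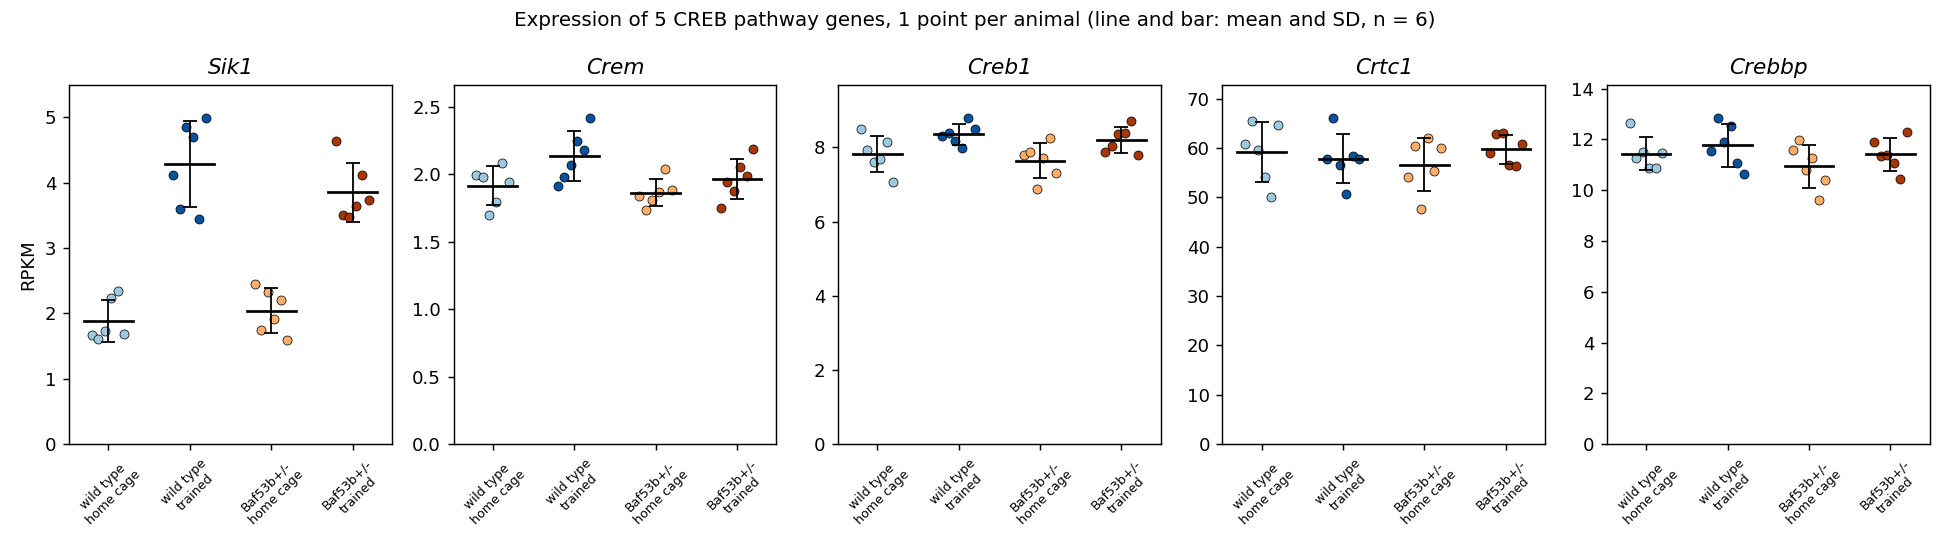
RPKM (vertical axis, from 0, a scale of its own for each gene) of the 5 genes in the 4 groups, 1 point per animal, with the group mean as a line and the SD as a bar (n = 6). Trained animals lie above all home cage animals of their genotype for Sik1, whereas the groups overlap for Crem, Creb1, Crtc1 and Crebbp.

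Training raised 1 of the 5 genes, Sik1, in each genotype. In wild-type home cage animals Sik1 ran from 1.62 to 2.34 RPKM with a median of 1.71, and in trained wild-type animals from 3.44 to 4.99 with a median of 4.40. In heterozygotes it ran from 1.59 to 2.45 RPKM with a median of 2.06 in the home cage, and from 3.47 to 4.64 with a median of 3.69 after training. All 6 trained animals were thus above all 6 home cage animals in each genotype, a separation in either direction that 1.24% of the 12399 tested genes showed in wild type and 1.33% in heterozygotes. The group means differed 2.28-fold in wild type (1.88 ± 0.323 against 4.28 ± 0.661 RPKM, SD, n = 6) and 1.89-fold in heterozygotes (2.04 ± 0.343 against 3.85 ± 0.450).

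On the log2(RPKM + 0.5) scale, which understates changes of low genes, the limma difference for Sik1 was 1.01 ± 0.10 in wild type (SE; Benjamini-Hochberg adjusted p = 6.92e-07) and 0.78 ± 0.10 in heterozygotes (adjusted p = 3.99e-05). At an adjusted p under 0.05, limma called 1.08% of tested genes in wild type and 1.03% in heterozygotes, in either direction. Sik1 was the 11th highest of the 12399 differences in wild type and the 15th in heterozygotes. The exact permutation test over animals, two-sided, gave p = 0.00216 in each genotype, the smallest value that 6 animals against 6 allow (0.0216 adjusted over the 20 tests of the 5 genes). With the 6 choroid-rich libraries left out the difference was 1.02 in wild type and 0.66 in heterozygotes, and both passed. With sex as a covariate the difference in heterozygotes was 0.75.

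The rise of Sik1 was smaller in heterozygotes by 0.22 on the log2 scale, but the interaction did not pass (difference of responses -0.22 ± 0.14, SE, 95% interval -0.52 to 0.07, limma adjusted p = 0.985). The interval thus holds both no difference and a response lower by 0.52. The value moved to -0.14 with the dentate score, the mean log2 level of dentate granule cell markers, as a covariate and to -0.37 without the choroid-rich libraries (unadjusted limma p of 0.304 and 0.0215, adjusted p of 1 and 0.957), and was -0.26 with sex as a covariate. In the same contrast all 10 dentate markers were positive (median 0.28) and all 13 tested choroid plexus markers negative (median -0.53), none of them passing, and apart from these fits their part in the value was not tested. No gene of the 12399 passed the interaction (0%, with 309 at an unadjusted p under 0.05). Sik1 did not pass between genotypes either. The difference, heterozygote minus wild type, was 0.09 in the home cage (95% interval -0.12 to 0.30) and -0.13 after training (-0.34 to 0.08).

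**Figure D2:**
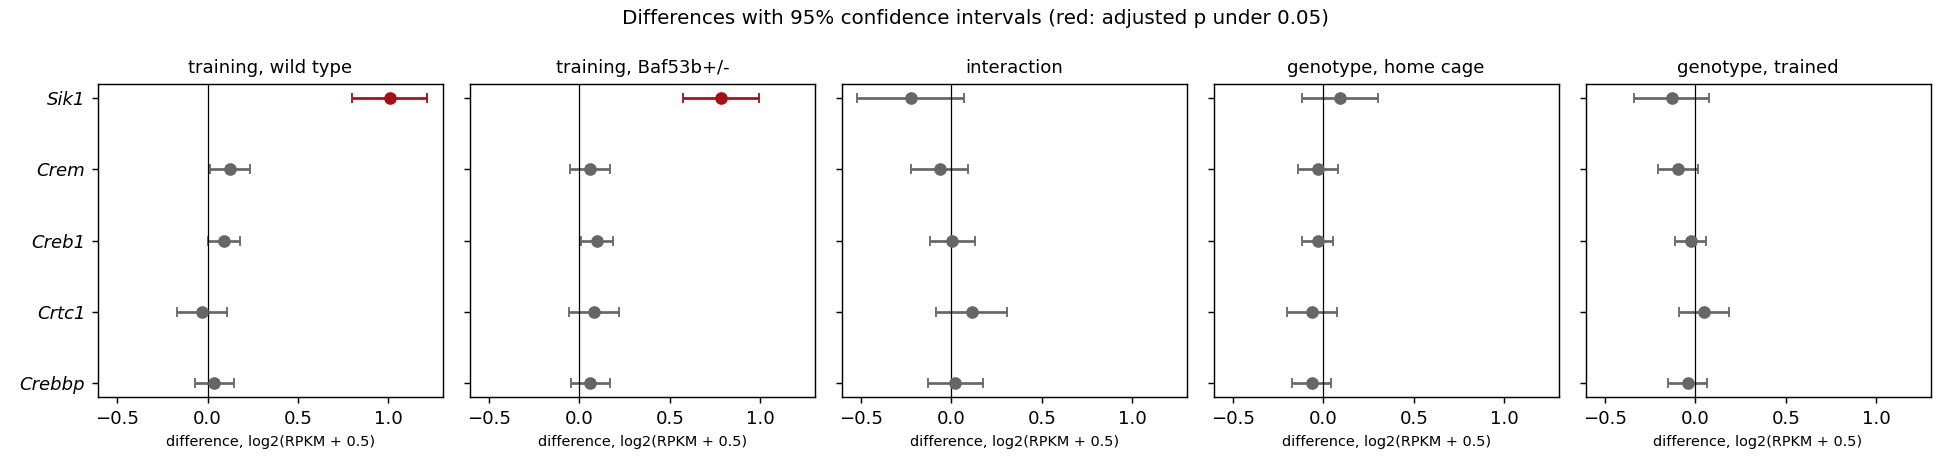
Differences on the log2(RPKM + 0.5) scale (horizontal axis) with 95% confidence intervals for the 5 genes in training within each genotype, the interaction (heterozygote response minus wild-type response) and genotype (heterozygote minus wild type) within each condition. The 2 red points are Sik1 at 1.01 in wild type and 0.78 in heterozygotes, and every other difference lies within 0.23 of 0 and did not pass.

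Crem encodes CREB-like activators and repressors, ICER among them, from alternative promoters and exons. Its values cover the gene as a whole, so a change of ICER alone could be diluted and was not measured here. Crem ran from 1.70 to 2.09 RPKM in wild-type home cage animals with a median of 1.96, and from 1.91 to 2.42 with a median of 2.12 after training. In heterozygotes it ran from 1.74 to 2.04 RPKM (median 1.85) in the home cage and from 1.75 to 2.18 (median 1.96) after training. The groups overlapped in both genotypes, with 3 trained wild-type and 2 trained heterozygous animals above the highest home cage one of their genotype. By this count, in wild type and heterozygotes, Creb1 had 1 and 3, Crtc1 1 and 2, and Crebbp 1 and 1. The share of tested genes reaching such counts was not taken. The limma difference of Crem was 0.12 ± 0.05 (SE) in wild type (95% interval 0.01 to 0.24, adjusted p = 0.383). In heterozygotes the limma difference was 0.06 ± 0.05 (-0.05 to 0.17, adjusted p = 0.737). The interval of the difference averaged over genotypes ended at 0.17. Of the 5 genes, Crem and Sik1 are those listed here as CREB targets, and the averaged difference of Crem was 0.09 against 0.89 for Sik1.

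Creb1 encodes CREB itself. It ran from 7.05 to 8.48 RPKM in wild-type home cage animals (median 7.82) and from 7.97 to 8.80 (median 8.35) after training. Heterozygotes gave 6.88 to 8.26 RPKM (median 7.76) in the home cage and 7.81 to 8.72 (median 8.20) after training. All 6 trained animals of each genotype lay above the median of their home cage group, but the ranges overlapped. By the same count Sik1 also had 6 in each genotype and Crem 5 in each. In wild type and heterozygotes Crebbp had 4 and 5, and Crtc1 1 and 4. The share of all tested genes with such a count was not taken. The limma differences were close in size, 0.09 ± 0.04 (SE) in wild type (adjusted p = 0.438) and 0.10 ± 0.04 in heterozygotes (adjusted p = 0.397). Averaged over genotypes Creb1 differed by 0.09 ± 0.03 (1.07-fold, 95% interval 0.03 to 0.16, adjusted p = 0.0828), just short of the threshold that 4.17% of tested genes passed in that comparison. It passed with the dentate score as a covariate (adjusted p = 0.0453), and when home cage animal 2402 (wild type) or 2422 (heterozygote) was left out (adjusted p = 0.0456 and 0.0485). These were 2 of 24 fits without 1 library, and the others gave a limma adjusted p of up to 0.141. Of 11 other settings, the dentate score among them, 10 left the call unchanged (limma adjusted p of up to 0.157). Within groups, Creb1 levels went with the dentate score at r = 0.53 (Spearman rho 0.47, 24 libraries, deviations from group means).

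Crtc1 encodes the CRTC coactivator that is most abundant in the brain. It ran from 50.1 to 65.5 RPKM (median 60.2) in wild-type home cage animals and from 50.6 to 66.1 (median 57.7) after training. In heterozygotes it ran from 47.7 to 61.96 RPKM (median 57.7) in the home cage and from 56.4 to 62.98 (median 59.8) after training. The groups overlapped throughout, and the lowest of the 24 values was that of heterozygous home cage animal 2415, whose dentate score was also the lowest. The training difference was -0.03 in wild type (95% interval -0.17 to 0.11) and 0.08 in heterozygotes (-0.06 to 0.22), with limma adjusted p of 0.922 and 0.712. Crtc1 levels followed the dentate score within groups at r = 0.67 (rho 0.62, 24 libraries), and with that score as a covariate the wild-type difference was 0.01. The part of dentate tissue in these levels was not tested.

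Crebbp encodes CBP, the acetyltransferase that phosphorylated CREB recruits. It ran from 10.9 to 12.7 RPKM (median 11.4) in wild-type home cage animals and from 10.7 to 12.9 (median 11.7) after training. In heterozygotes it ran from 9.62 to 11.98 RPKM (median 11.03) in the home cage and from 10.45 to 12.3 (median 11.4) after training. The groups overlapped almost completely. The training difference was 0.04 ± 0.05 (SE) in wild type (limma adjusted p = 0.844) and 0.06 ± 0.05 in heterozygotes (adjusted p = 0.73), and both 95% intervals ended at or below 0.17.

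No member passed limma between genotypes or in the interaction, where Actl6b was the 1 gene of 12399 called in each genotype comparison within a condition (0.00807%). Averaged over conditions 0.0242% of tested genes passed (0.0161% lower in heterozygotes, 0.00807% higher), and no member was among them. In no member did heterozygotes and wild types separate. Such a separation was seen for 0.0565% of tested genes in the home cage (0.0242% with heterozygotes higher) and for 0.226% after training (0.0565% higher). Of the 20 member differences between genotypes and in training by exact permutation, the 2 of Sik1 in training passed after adjustment. The largest genotype difference of the other 4 genes was that of Crem after training (-0.09, 95% interval -0.21 to 0.02, limma adjusted p = 0.993, exact permutation p = 0.117). For Creb1, Crtc1 and Crebbp the intervals of both genotype differences ran from -0.202 at the lowest to 0.189 at the highest. Since these are bulk samples, fewer cells of a type and less RNA per cell cannot be told apart in any of these values.

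The genes whose training responses were nearest to that of Sik1, by distance in the pair of differences in wild type and heterozygotes, were the early gene Ier2 (0.995 and 0.86), the MAP kinase phosphatase gene Dusp1 (1.08 and 0.92) and Arl4d, which encodes a small GTPase (0.79 and 0.74). The RefSeq promoter table (GRCm38.p6, windows of 300 bases over annotated starts) held entries for Dusp1, Arl4d, Creb1, Crtc1 and Crebbp, but none for Sik1, Crem or Ier2. They are printed as the windows at hand for the members and for the genes nearest to Sik1 in response. Capitals mark every match to the full palindrome TGACGTCA or to its shorter core TGACG on either strand (CGTCA). A full element contains 2 overlapping cores.
Dusp1 promoter: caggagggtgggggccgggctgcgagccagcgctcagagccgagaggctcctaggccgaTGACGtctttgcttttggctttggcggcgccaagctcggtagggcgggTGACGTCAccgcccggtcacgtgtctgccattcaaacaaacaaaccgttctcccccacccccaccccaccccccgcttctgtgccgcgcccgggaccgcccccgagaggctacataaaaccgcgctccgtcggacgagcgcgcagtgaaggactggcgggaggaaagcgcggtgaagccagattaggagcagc
Arl4d promoter: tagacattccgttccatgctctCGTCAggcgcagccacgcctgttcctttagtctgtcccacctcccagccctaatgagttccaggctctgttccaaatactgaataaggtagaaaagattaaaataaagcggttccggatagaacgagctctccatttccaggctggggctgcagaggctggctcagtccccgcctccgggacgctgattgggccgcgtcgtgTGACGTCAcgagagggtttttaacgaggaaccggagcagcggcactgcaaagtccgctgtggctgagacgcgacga
Creb1 promoter: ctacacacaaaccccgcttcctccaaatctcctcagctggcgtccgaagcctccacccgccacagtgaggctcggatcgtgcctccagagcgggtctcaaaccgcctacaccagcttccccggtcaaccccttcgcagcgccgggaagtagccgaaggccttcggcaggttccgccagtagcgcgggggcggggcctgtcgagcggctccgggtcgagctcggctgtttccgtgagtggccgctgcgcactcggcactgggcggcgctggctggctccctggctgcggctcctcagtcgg
Crtc1 promoter: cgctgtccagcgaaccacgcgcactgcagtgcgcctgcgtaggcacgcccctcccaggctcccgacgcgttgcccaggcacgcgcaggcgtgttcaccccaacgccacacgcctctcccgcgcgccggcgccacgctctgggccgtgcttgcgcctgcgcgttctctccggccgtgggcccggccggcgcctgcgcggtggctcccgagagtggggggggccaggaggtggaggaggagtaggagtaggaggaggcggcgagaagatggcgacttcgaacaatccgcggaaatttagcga
Crebbp promoter: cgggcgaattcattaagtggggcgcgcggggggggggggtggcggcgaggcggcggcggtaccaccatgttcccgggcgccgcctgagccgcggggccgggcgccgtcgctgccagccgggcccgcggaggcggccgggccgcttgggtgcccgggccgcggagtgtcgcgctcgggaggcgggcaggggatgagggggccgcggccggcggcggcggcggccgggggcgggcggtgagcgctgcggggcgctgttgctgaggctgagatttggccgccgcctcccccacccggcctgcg
The windows, on strands given by sign, are chr17:26508423-26508722 (-) for Dusp1, chr11:101665291-101665590 (+) for Arl4d, chr1:64532554-64532853 (+) for Creb1, chr8:70439524-70439823 (-) for Crtc1 and chr16:4213355-4213654 (-) for Crebbp. The full element starts 143 bases before the start site of Dusp1 and 26 before that of Arl4d, and each of these windows has 1 more core, at -191 and -228. Among 27025 genes in the table, 2.0% had a window with the full element and 23% one with a core, and among the 8893 tested genes with a window 3.6% and 35.9%. No match in the windows of 3 members is thus no result about them. Among CREB targets, full elements were found for 2 of the 13 targets with a window that rose, and for 4 of the 10 that did not pass. The windows of Fos, Nr4a1, Per1 and Junb, which rose, hold the core but no full element. A match describes letters and not binding, and a window without one says nothing of elements elsewhere.

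In the deposited table, which uses mm9, Sik1 lies on chromosome 17 at 31981195 to 31992737, Creb1 on chromosome 1 at 64579378 to 64651122, Crtc1 on chromosome 8 at 72906257 to 72963472 and Crebbp on chromosome 16 at 4084048 to 4213404. Crem is on chromosome 18. No other entry of the table overlaps Sik1, Creb1, Crtc1 or Crebbp. The gene model Gm6225 overlaps Crem at a mean of 0.201 RPKM, and without strand its reads cannot be told apart from those of Crem.

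The relatives of the members did not pass in training. Sik2, another salt-inducible kinase gene, was at 7.29 ± 0.489 RPKM (SD, n = 24) and Sik3 at 34.7 ± 1.45, both higher than Sik1 in every library. Their averaged training differences were 0.09 ± 0.03 (SE, limma adjusted p = 0.173) and 0.03 ± 0.03 (adjusted p = 0.683), against 0.89 ± 0.07 for Sik1 (adjusted p = 4.84e-09). The coactivator genes Crtc2 and Crtc3 stood at 8.55 and 5.72 RPKM and differed by 0.06 and 0.05. Ep300, which encodes the CBP relative p300, differed by 0.08 ± 0.03 (adjusted p = 0.133), and the CREB family gene Atf1 by 0.08 ± 0.04 (adjusted p = 0.387).

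Around the members, lists of pathway genes were compared by counts, read against the 4.17% of tested genes that limma called in the average over genotypes. Apart from genes listed as CREB targets, 0 of 83 tested pathway genes passed. At an unadjusted p under 0.05 there were 12 of them (14.5%), near the 16.8% of all tested genes. Their median difference was 0.002, against 0.004 over all 12399 genes. None of 12 CREB family factors passed, nor did any of 3 CRTC coactivators or of 6 genes of CBP, p300 and associated acetyltransferases. Sik1 was the 1 gene called among 8 SIK kinases and parts of the LKB1 complex, which activates them. None of 24 genes of CREB kinases, their regulatory subunits and upstream kinases passed. The smallest p among them was that of Prkaca, which encodes a catalytic subunit of protein kinase A (-0.06 ± 0.02, SE, limma adjusted p = 0.0781). Prkaca passed without trained wild-type animal 2407, and Camk1g, which encodes a calmodulin-dependent kinase, passed with the dentate score as a covariate. None of 18 PKA inhibitors, adenylyl cyclases and phosphodiesterases passed, nor any of 14 genes of calcineurin, other CREB phosphatases and their regulators. In the latter list the calcineurin subunit gene Ppp3cc differed by -0.06 ± 0.02 (adjusted p = 0.108) and passed under quantile normalization.

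Among genes listed as CREB targets, 15 of 30 tested rose in wild type and 15 in heterozygotes, 14 of them in both, where 0.96% and 0.887% of all tested genes rose. Sik1 was among the 14 and Crem in neither set. Averaged over genotypes 17 rose (3.26% of all tested genes) and 0 fell (0.911%), with a median difference of 0.39. Fos, a subunit of the AP-1 factor, differed by 2.56 ± 0.13 (SE), the synaptic gene Arc by 1.94 ± 0.10, the nuclear receptor gene Nr4a1 by 1.43 ± 0.07 and the zinc finger gene Egr1 by 1.23 ± 0.05. Npas4, an activity-dependent factor, differed by 1.38 ± 0.17, and the clock gene Per1 by 0.43 ± 0.03. Many of these genes are early genes already known to respond in these samples, so the list is no independent evidence of its direction. The 13 targets that did not pass included neuropeptide genes, among them Sst (0.12 ± 0.08), Penk (0.15 ± 0.08) and Pdyn (0.10 ± 0.11). Vgf, which encodes a secreted neuropeptide precursor, was nearest to the threshold (0.22 ± 0.06, adjusted p = 0.0526). A promoter core match was found for 12 of the 13 targets with a window that rose and for 8 of the 10 with a window that did not pass. Among all tested genes with a window the share was 35.9%. The genes were listed as known CREB targets, so these counts are no independent evidence about CREB. Of the 83 tested pathway genes not listed as targets and 4 untested ones, 69 had a window and 38 of these a core match (55.1%). None of the 113 tested pathway genes passed between genotypes in either condition, nor in the interaction. At an unadjusted p under 0.05 there were 5 (4.42%) in the home cage, 2 (1.77%) after training and 1 (0.885%) in the interaction, against 3.52%, 3.69% and 2.49% of all tested genes.

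**Figure D3:**
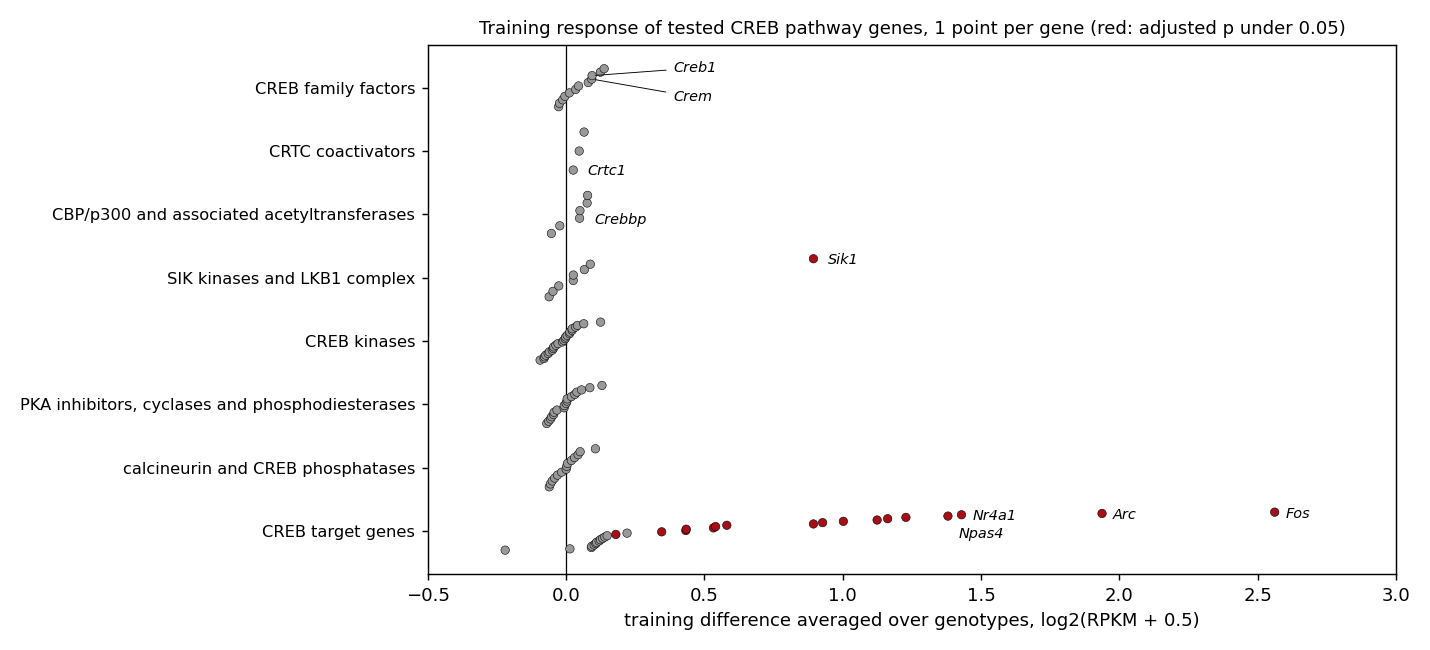
Training difference averaged over genotypes on the log2(RPKM + 0.5) scale (horizontal axis) for each tested gene of 8 pathway lists, 1 point per gene and list, red where the limma adjusted p was under 0.05. Sik1, at 0.89, stands apart from the other members and from all lists but the targets, where 17 of 30 points are red.

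Within groups, libraries with more Crtc1 had less Sik1. Over the 24 libraries the deviations of the 2 genes from their group means had r = -0.74 (rho -0.76), and 10 of the 12398 other tested genes had a lower r with Sik1. In each group taken alone r was negative, from -0.95 in wild-type home cage animals to -0.51 in trained heterozygotes (n = 6 each). Both values of a point come from 1 library and share its tissue makeup, depth and scaling. The dentate score moved with both genes (r = 0.67 for Crtc1 and -0.43 for Sik1). With that score regressed out r was -0.67, with the 6 choroid-rich libraries left out -0.72, and without any single library -0.78 to -0.69. Apart from the fit with the dentate score regressed out, the part of that score in the relation was not tested. The other 9 pairs of members had r between -0.32 and 0.27. Depth went weakly with Sik1 (r = -0.11, rho -0.13) and more with Creb1 (r = 0.39, rho 0.46). For Crebbp r was 0.41 but rho 0.22.

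**Figure D4:**
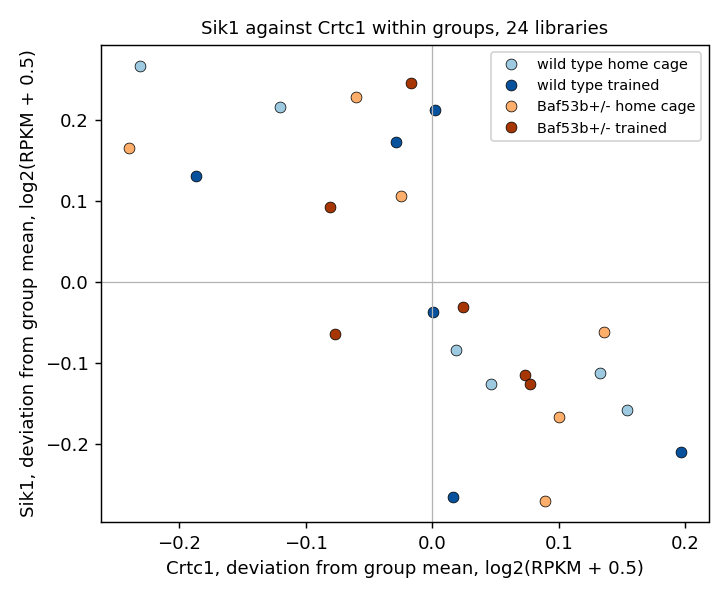
Deviation of each library from its group mean, on the log2(RPKM + 0.5) scale, for Crtc1 (horizontal axis) and Sik1 (vertical axis), 1 point per animal, coloured by group. Points run from upper left to lower right, with r = -0.74 over the 24 libraries.

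By the same measure, deviations from group means over 24 libraries, the genes most like Sik1 included Haus8 (r = 0.84) and Stx7 (0.83), and those most like Crem were 2410004B18Rik (0.76), Zfp593 (0.74) and Tfb2m (0.69). Creb1 was nearest to Fbxo11 (0.84), Slmap (0.83) and Capza2 (0.82). Crtc1 was nearest to Mast3 and Agfg2 (both 0.88) and Cplx2 (0.88). Crebbp went with Hcfc1 (0.95), D10Bwg1379e (0.90) and Prrc2c (0.89). These are among the highest of 12398 correlations each, from libraries that share tissue makeup and scaling, and none of the members was among the 3 nearest genes of another.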

How the data were processed

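RNA of 24 mice was sequenced from TruSeq RNA v2 libraries, which keep no strand, as single-end reads of 50 cycles, per the labels' protocols. The submitters' processing notes list the build mm9 and the tools Bowtie 0.12.8 and CASAVA 1.8.2. What the authors deposited is a single table in RPKM, a column for each animal. Neither its annotation nor the treatment of multiply matching reads is stated in these sources. Libraries were pooled so that every flow cell held each behavioural group, per the labels, but the pool of each animal is not given, so no batch was fitted. Each library has its own replicate number in the labels and was taken as 1 animal, which the labels do not state, so p-values measure the spread between these samples.

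The log2 of RPKM plus 0.5 was fitted for the 12399 genes averaging 1 RPKM or more, with limma 3.58.1 in R 4.3.3, all 4 groups in 1 model, trend and robust settings, and Benjamini-Hochberg adjustment over all tested genes at 0.05. The 5 members were also compared by exact permutation. Depth was taken from whole-read steps of single-exon genes. The choroid plexus and dentate scores are mean log2 values of 14 and 10 markers, and a library was called rich in choroid plexus transcripts when over 1 log2 unit above the median.

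The members and all lists were chosen with earlier results of these data known. Named genes are the members and their paralogs, up to 6 genes that passed or 2 by p in each list and comparison, and the 3 genes most like each member, of which 1 is not reported here. Per1, Junb, Camk1g, Sst, Penk, Pdyn and Vgf, where named outside that rule, were chosen after their values were seen.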

Additional observations from a re-analysis of the deposited data

Results flagged for a closer look

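Among 20 sets of 6 values (5 genes in 4 groups), 1 held a value far from the others: Crebbp in wild-type home cage animal 2402 was at 12.658 RPKM, and the next highest animal of the group at 11.498. The gap was 0.655 of the range of the group, above the Dixon limit for 6 values, and chance flags about 1 in 20 such sets. Without wild-type home cage animals 1 at a time, and likewise for each other library, the training difference of Crebbp in wild type stayed between 0.01 and 0.07 and did not pass.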

How the results depend on the processing

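No paired analysis was possible because each animal has a number of its own and no number is shared between groups. The rise of Sik1 passed in each genotype under all 11 other settings that gave it a value and in all 24 fits without 1 library. Its log2 difference ran from 0.87 to 1.15 in wild type and from 0.66 to 0.89 in heterozygotes over these settings, and from 0.96 to 1.06 and 0.73 to 0.83 over the fits without 1 library. With a mean of at least 5 RPKM required, Sik1 and Crem were not tested. The differences that changed sign were all small and did not pass: with the dentate score as a covariate Crtc1 in wild-type training was 0.00735 and the Creb1 interaction -0.0325. Without the 6 choroid-rich libraries the Sik1 genotype average was 0.00325, the Creb1 interaction -0.00717 and the Crebbp interaction -0.00605. The cause was not tested. Without 1 library, Crtc1 in wild-type training ran from -0.0763 to 0.00725, the genotype averages of Sik1 from -0.0455 to 0.00811 and of Crtc1 from -0.0297 to 0.0174, and the interactions of Creb1 from -0.022 to 0.0332 and of Crebbp from -0.0126 to 0.0479. Creb1 in the training average, at 0.0917 with the dentate score, is the 1 member whose call changed. The number of pathway genes called stayed within 10 to 17 in each genotype. Over all genes, without the choroid-rich libraries 65, 51 and 262 genes were called in wild type, heterozygotes and the average, in place of 134, 128 and 517, with 18 libraries left. In fits of only 2 groups 75 and 85 were called. Under quantile normalization 303 of 483 calls in the average were higher, against 404 of 517. Depth limits Sik1 and Crem most, at 54.8 and 56.3 reads per kilobase in their least covered libraries, against 217 for Creb1, 303 for Crebbp and 1500 for Crtc1.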
